A study of Cavia porcellus with 12 samples.

Results

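The genes described here mark the lining of blood vessels, and were read in the liver of guinea pigs with nonalcoholic steatohepatitis (NASH) and of controls. They were named by symbol, 10 in all, and every one that is a row of the deposited table of 11896 human orthologue symbols was taken. This gave 8 genes, 4 that mark vessels with a continuous wall (*VWF*, *ACKR3*, *PECAM1* and *CD34*) and 4 that mark the liver sinusoid (*STAB1*, *STAB2*, *LYVE1* and *KDR*). The split into these classes follows general knowledge of the genes. It is least certain for *KDR* and *PECAM1*, which endothelium in general expresses. *PLVAP* and *FCN3*, the other two, were not analysed here.

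The liver sinusoid is lined by a specialised endothelium, which has open pores, lies on hardly any basement membrane and clears waste molecules from the blood through scavenger receptors. Arteries, veins and the capillaries of most other organs have a continuous endothelium on a basement membrane. In chronic liver injury, sinusoidal endothelium is known to lose its pores and scavenger receptors and to take on features of continuous vessels, a change called capillarisation.

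The livers of 6 animals with NASH and 6 controls were sequenced. All were female Dunkin Hartley guinea pigs that arrived at 10 weeks of age. Controls were fed chow and the NASH group a high-fat diet, which also held sucrose and cholesterol, for 25 weeks. The NASH animals were selected for bridging fibrosis (grade 3) and the controls were drawn from chow-fed animals without NASH or fibrosis, so that diet and histology cannot be told apart. The livers were not perfused, and each sample is the RNA of a piece of the left lateral lobe of one animal. In such bulk tissue, fewer endothelial cells and less RNA per endothelial cell cannot be told apart. Animals are named by the numbers of their labels.

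Between 16980274 and 33091460 reads were counted per animal. Levels are given in CPM, counts scaled to library size with the TMM factors of edgeR. CPM grows with transcript length, so levels are compared between animals and not between genes. With edgeR's quasi-likelihood test, a gene was called where its Benjamini–Hochberg adjusted p-value over all 11896 symbols was under 0.05. Of all symbols 53.9% were called, 27.9% as higher and 26.0% as lower in NASH. In 33.7% of the symbols the CPM of the groups did not overlap, with NASH above in 18.4% and below in 15.3%. The liver markers were those of hepatocytes in both groups, with *ALB* at 74900 ± 7810 CPM in controls and 30500 ± 5730 CPM in NASH (± SD, n = 6 per group). Each of the 8 endothelial genes was counted in every animal, with a single symbol on its count row.

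All 4 continuous-vessel genes rose in NASH, whereas of the 4 sinusoidal genes *LYVE1* fell, *STAB2* rose, and *STAB1* and *KDR* did not pass the test. The continuous-vessel genes had a median log2 fold change (NASH minus control) of 1.33 and the sinusoidal genes one of 0.02, or −0.19 with *KDR* left out, beside 0 over all symbols. *VWF* and *ACKR3* were singled out by the study on these same animals for their fold change and their relation to fibrosis area, so their rise is not independent of that choice.

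**Figure D1:**
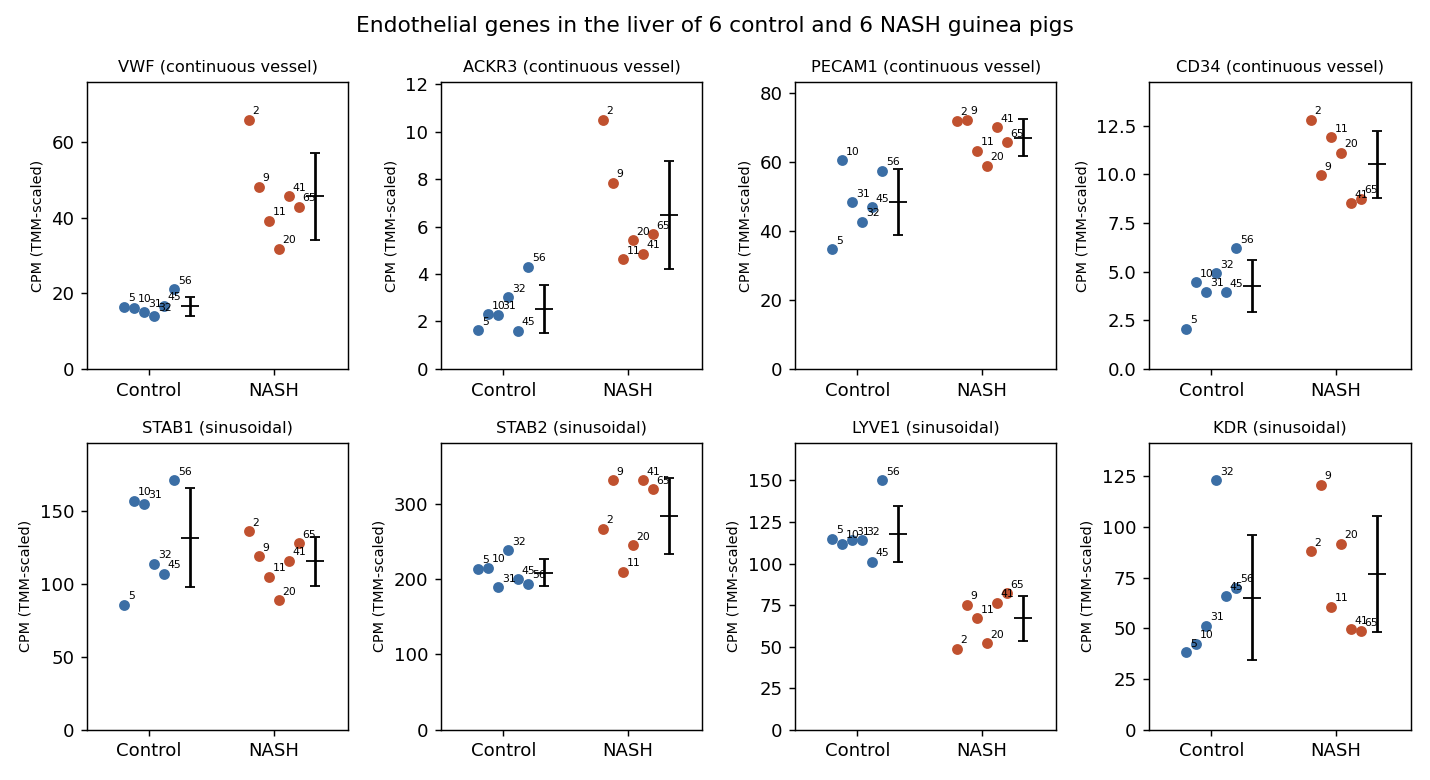
Level of each endothelial gene in CPM (vertical axis, from 0) in 6 control and 6 NASH animals. Points are animals, labelled by number, and the bar beside them is the mean with its SD. The groups are apart for VWF, ACKR3 and CD34, where NASH is higher, and for LYVE1, where NASH is lower.

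*VWF* encodes von Willebrand factor, the large blood protein that tethers platelets to an injured vessel wall and is stored in the Weibel–Palade bodies of endothelial cells. In controls its level was between 13.9 and 21.1 CPM with a median of 16.3 CPM. In NASH it was between 31.8 and 65.9 CPM with a median of 44.3 CPM. Every NASH animal was above every control, and animal 2 stood highest. *VWF* rose from a mean of 16.6 ± 2.44 to 45.6 ± 11.5 CPM (± SD, n = 6 per group), 2.76-fold, or 1.46 on the log2 scale with an SE of 0.16 (edgeR adjusted p = 7.85e-06).

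*ACKR3* encodes an atypical chemokine receptor, which takes up the chemokine CXCL12 without the usual G protein signal. It was among the least abundant of these genes in counts, with 23 to 66 reads in a control and 141 to 309 in an animal with NASH. Its level ran from 1.61 to 4.31 CPM in controls, with a median of 2.29 CPM, and from 4.62 to 10.5 CPM in NASH, with a median of 5.55 CPM. The groups did not overlap, but they came close, since control 56 lay just under NASH animal 11. The mean rose from 2.53 ± 1.02 to 6.49 ± 2.28 CPM (± SD, n = 6 per group), or by 1.36 on the log2 scale with an SE of 0.28 (edgeR adjusted p = 0.00107).

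*CD34* encodes a sialomucin on the surface of continuous endothelium and of blood progenitors, which healthy sinusoids largely lack. Controls ranged from 2.07 to 6.19 CPM with a median of 4.21 CPM. Animals with NASH ranged from 8.52 to 12.8 CPM with a median of 10.5 CPM, again without overlap. The mean rose 2.46-fold, from 4.26 ± 1.35 to 10.5 ± 1.71 CPM (± SD, n = 6 per group), or by 1.3 on the log2 scale with an SE of 0.20 (edgeR adjusted p = 0.000144).

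*PECAM1* encodes an adhesion protein of the junctions between endothelial cells, which leukocytes and platelets carry too. Its level was between 34.7 and 60.4 CPM in controls, with a median of 47.5 CPM, and between 58.9 and 72.2 CPM in NASH, with a median of 67.8 CPM. The groups overlapped, because control 10 lay above NASH animal 20. *PECAM1* rose 1.38-fold, from a mean of 48.4 ± 9.47 to 67.0 ± 5.35 CPM (± SD, n = 6 per group), or by 0.47 on the log2 scale with an SE of 0.12 (edgeR adjusted p = 0.00521). Its 95% interval, from 0.21 to 0.73, lies below that of *VWF*, from 1.12 to 1.81, and that of *CD34*, from 0.86 to 1.73.

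*LYVE1* encodes a receptor for hyaluronan, found on sinusoidal and lymphatic endothelium and on some macrophages. It was the sinusoidal gene that fell. Controls lay between 101 and 150 CPM with a median of 114 CPM, and animals with NASH between 48.7 and 82.2 CPM with a median of 71.1 CPM. No animal with NASH reached a control, and NASH animal 2, the highest for *VWF*, was the lowest for *LYVE1*. The mean fell from 118 ± 16.7 to 66.9 ± 13.7 CPM (± SD, n = 6 per group), to 0.569 times the control level, or −0.81 on the log2 scale with an SE of 0.14 (edgeR adjusted p = 0.000314).

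*STAB2* encodes stabilin-2, a scavenger receptor that clears hyaluronan and other matrix fragments and is among the most selective markers of sinusoidal endothelium. Its level went the opposite way to that of *LYVE1*. It was between 189 and 238 CPM in controls, with a median of 207 CPM, and between 210 and 331 CPM in NASH, with a median of 293 CPM. NASH animal 11 lay among the controls, and the other 5 animals with NASH lay above all of them. *STAB2* rose 1.36-fold, from 208 ± 18.0 to 284 ± 50.8 CPM (± SD, n = 6 per group), or by 0.45 on the log2 scale with an SE of 0.12 (edgeR adjusted p = 0.00554).

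*STAB1* encodes stabilin-1, a related scavenger receptor that macrophages express as well. Its level was between 85.8 and 171 CPM in controls, with a median of 135 CPM, and between 88.7 and 136 CPM in NASH, with a median of 118 CPM. Both the highest and the lowest value belonged to controls, animals 56 and 5, and the NASH animals lay inside their range. The difference did not pass the test, with a log2 fold change of −0.19, a 95% interval from −0.55 to 0.17 and an adjusted p of 0.361 from edgeR.

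*KDR* encodes the main receptor of VEGF-A, which is strong in sinusoids but is carried by endothelium in general. It varied more than any other of the 8 genes, from 38.2 to 123 CPM in controls (median 58.7 CPM) and from 48.7 to 121 CPM in NASH (median 74.4 CPM). Control 32 and NASH animal 9 were the highest of their groups, at almost the same level. The log2 fold change was 0.23, with a 95% interval from −0.43 to 0.90 (edgeR adjusted p = 0.541).

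The spread between animals was wider than counting error for each of the 8 genes in each group. *ACKR3* had a coefficient of variation of 40.2% in controls and 35.2% in NASH, where counting alone gives 14.5% and 6.94%. *KDR*, with far more reads, had 47.5% and 37.5%, where counting alone gives 2.78% and 2.01%. *PECAM1* in NASH was the most even, at 7.99%, followed by *STAB2* in controls at 8.62%.

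**Figure D2:**
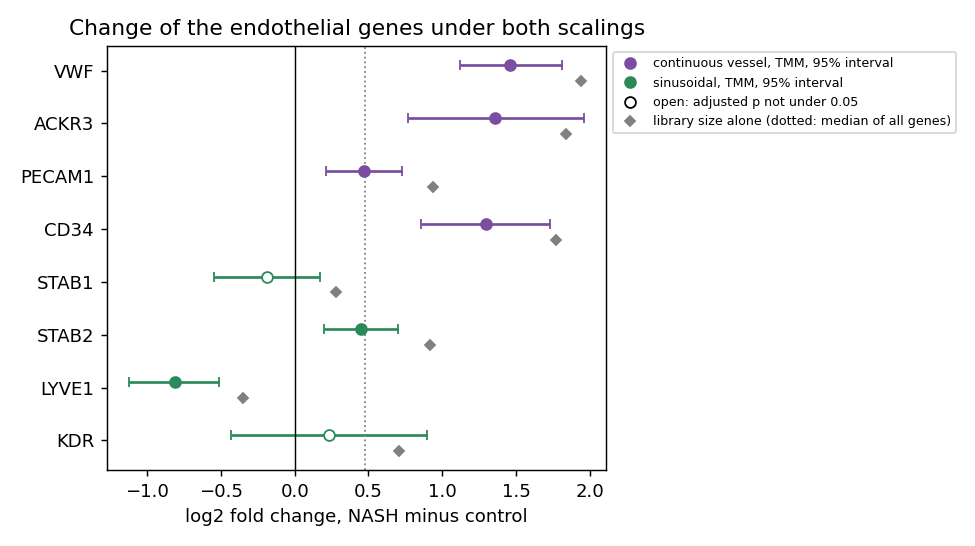
Log2 fold change of each endothelial gene, NASH minus control (horizontal axis). Circles with bars are TMM-scaled estimates with 95% intervals (n = 6 each), open where the adjusted p is not under 0.05. Grey diamonds are estimates with library size alone, under which the median of all symbols is 0.48 (dotted line). VWF, ACKR3 and CD34 lie to the right and LYVE1 to the left under both scalings.

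Scaling bears on the smaller changes. TMM gave controls factors of 0.804 to 0.875 and NASH animals factors of 1.116 to 1.241, so each library's scaling moves with the group. With library size alone, 7603 symbols were higher and 911 lower, where TMM gave 3318 and 3093, and the median log2 fold change of all symbols was 0.48. The calls of the 8 genes were the same under both. The sizes moved with it. On the log2 scale *VWF* was then at 1.94, *ACKR3* at 1.84, *CD34* at 1.77, *PECAM1* at 0.94 and *STAB2* at 0.92. *LYVE1* was at −0.35, *KDR* at 0.71 and *STAB1* at 0.28, the opposite sign to that with TMM. Subtracting the median of all symbols returns values close to those of TMM, such as 0.44 for *STAB2* and −0.83 for *LYVE1*.

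Differences between genes within one animal do not depend on this scaling. The mean log2 CPM of the 4 continuous-vessel genes minus that of the 4 sinusoidal genes was −3.63 ± 0.19 in controls and −2.40 ± 0.22 in NASH (± SD, n = 6 per group). Controls ran from −3.83 to −3.34 and NASH from −2.59 to −1.98, without overlap, and NASH animal 2 stood highest. With *KDR* left out, the means were −3.95 ± 0.19 and −2.61 ± 0.31, also without overlap. Since the genes were chosen with these changes known, this is a description and was not tested. Of the 16 pairs of a continuous-vessel and a sinusoidal gene, 9 had a difference that was higher in every NASH animal than in every control, and 0 had the opposite. Over all ordered pairs of symbols, 17.7% had a difference that was higher in every NASH animal, and the 16 pairs share their genes. The 9 pairs were every pair with *STAB1*, every pair with *LYVE1*, and *VWF* with *STAB2*. The shift was widest for *VWF* minus *LYVE1*, from −2.82 ± 0.15 in controls to −0.56 ± 0.50 in NASH on the log2 scale (± SD, n = 6 per group). It was least for *PECAM1* minus *STAB2*, with means of −2.12 ± 0.35 and −2.07 ± 0.22 (± SD, n = 6 per group), where both genes had risen by a like amount.

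**Figure D3:**
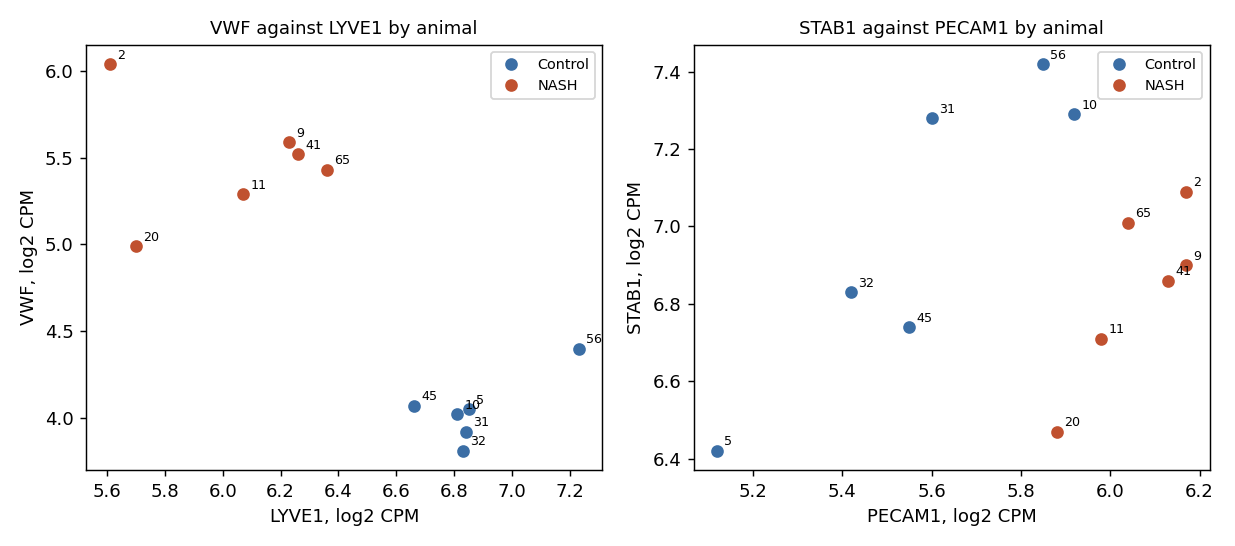
Levels by animal in log2 CPM, with blue points for controls, orange points for NASH and animal numbers beside them. On the left, VWF (vertical axis) against LYVE1 (horizontal axis) sets all 6 NASH animals apart at the upper left. On the right, STAB1 rises with PECAM1 among the animals of each group, and NASH lies to the right of most controls.

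Genes that endothelial cells of any vessel express were read beside the 8 genes. Of the 25 genes of this pan-endothelial list, 19 were among the symbols tested, 3 of which were higher, 2 lower and 14 not called, where 27.9% of all symbols were higher and 26.0% lower. With library size alone 14 were higher and 0 lower. The median log2 fold change was 0.15. *CDH5*, the cadherin of endothelial junctions, was at 69.0 ± 14.5 CPM in controls and 69.3 ± 10.6 CPM in NASH (± SD, n = 6 per group), a difference of 0.00 on the log2 scale (edgeR adjusted p = 0.983), and was looked at after its value was seen. The summed level of the list ran from 615 to 755 CPM in controls and from 638 to 739 CPM in NASH. Among those called, *ECSCR*, an endothelial surface protein whose count row carries another symbol too, rose by 0.84 on the log2 scale (edgeR adjusted p = 0.00138). *ROBO4*, a guidance receptor that steadies the vessel wall, rose by 0.75 (edgeR adjusted p = 0.00709). *S1PR1*, the sphingosine 1-phosphate receptor that keeps vessels tight, fell by 0.56 (edgeR adjusted p = 0.000399). *TEK*, the angiopoietin receptor, fell by 0.36 (edgeR adjusted p = 0.00115).

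Set against the mean log2 CPM of this list in the same animal, *VWF* moved from 0.05 ± 0.15 to 1.37 ± 0.26, *CD34* from −1.94 ± 0.43 to −0.72 ± 0.30, and *LYVE1* from 2.88 ± 0.15 to 1.93 ± 0.28 (± SD, n = 6 per group). All 4 continuous-vessel genes then lay higher in every NASH animal than in every control, *PECAM1* among them, at 1.58 ± 0.22 and 1.96 ± 0.04 (± SD, n = 6 per group). *LYVE1* lay lower in every NASH animal. *STAB1*, *STAB2* and *KDR* overlapped between the groups on this scale. The share of all symbols that lay apart on this scale was not worked out. On CPM itself, every NASH animal lay above every control in 18.4% of all symbols and below in 15.3%.

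Other genes of sinusoidal endothelium were mixed. Of the 20 listed, 14 were tested, of which 5 were lower, 1 higher and 8 not called, with a median log2 fold change of −0.28. Over all symbols 26.0% were lower. *EHD3*, a membrane trafficking protein, fell most, from 177 ± 38.1 to 99.8 ± 16.4 CPM (± SD, n = 6 per group), a difference of −0.83 on the log2 scale with an SE of 0.15 (edgeR adjusted p = 0.000409). *DNASE1L3*, a secreted nuclease, fell from 96.7 ± 19.2 to 55.1 ± 8.05 CPM (± SD, n = 6 per group), a difference of −0.81 on the log2 scale with an SE of 0.14 (edgeR adjusted p = 0.00033). These falls were of the size of that of *LYVE1*. *LIFR*, the receptor of leukaemia inhibitory factor, which hepatocytes express too, was the gene that rose, from 137 ± 71.2 to 331 ± 82.9 CPM (± SD, n = 6 per group), or by 1.27 on the log2 scale with an SE of 0.29 (edgeR adjusted p = 0.00237). With every count row that held at least 1 count in the test, 3 genes of the list were lower, without control 5 there were 7, and with library size alone 1 was lower and 4 were higher.

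Genes tied to continuous, activated or growing vessels mostly rose. Of the 20 listed, 15 were tested, with 10 higher, 1 lower and 4 not called and a median log2 fold change of 1.05, beside 27.9% higher over all symbols. *ESM1*, endocan, a product of sprouting endothelium, rose from 2.16 ± 0.895 to 13.2 ± 5.98 CPM (± SD, n = 6 per group), or by 2.61 on the log2 scale with an SE of 0.32 (edgeR adjusted p = 2.34e-05). *CD9*, a tetraspanin that many cell types express, rose by 2.22 (SE 0.14, edgeR adjusted p = 1.33e-07). *RGCC*, a regulator of the cell cycle listed for capillary endothelium, fell from 108 ± 12.0 to 50.1 ± 7.90 CPM (± SD, n = 6 per group), a difference of −1.11 on the log2 scale with an SE of 0.11 (edgeR adjusted p = 4.5e-06). *CLU*, which hepatocytes and bile duct cells make, is also among the 10, so the list is not a measure of endothelium alone.

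The basement membrane that underlies continuous vessels was represented by 14 genes. Of these, 13 were tested, with 12 higher, 0 lower and 1 not called, and a median log2 fold change of 1.23, where 27.9% of all symbols were higher and 26.0% lower. *COL4A1* rose from 35.8 ± 5.84 to 202 ± 58.4 CPM (± SD, n = 6 per group), or by 2.49 on the log2 scale with an SE of 0.19 (edgeR adjusted p = 4.79e-07), and *COL4A2*, which encodes its partner chain in type IV collagen, by 2.41 (SE 0.19, edgeR adjusted p = 7.24e-07). These proteins are made by stellate cells and fibroblasts as well as by endothelium. Of the 10 mesenchymal markers, all tested, 8 were higher and 0 lower, against the same background, and their summed level ran from 710 to 851 CPM in controls and from 1530 to 3010 CPM in NASH. Their part in the rise of the basement membrane genes, and in that of *CD34* and *ACKR3*, which fibroblasts can express, was not tested.

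**Figure D4:**
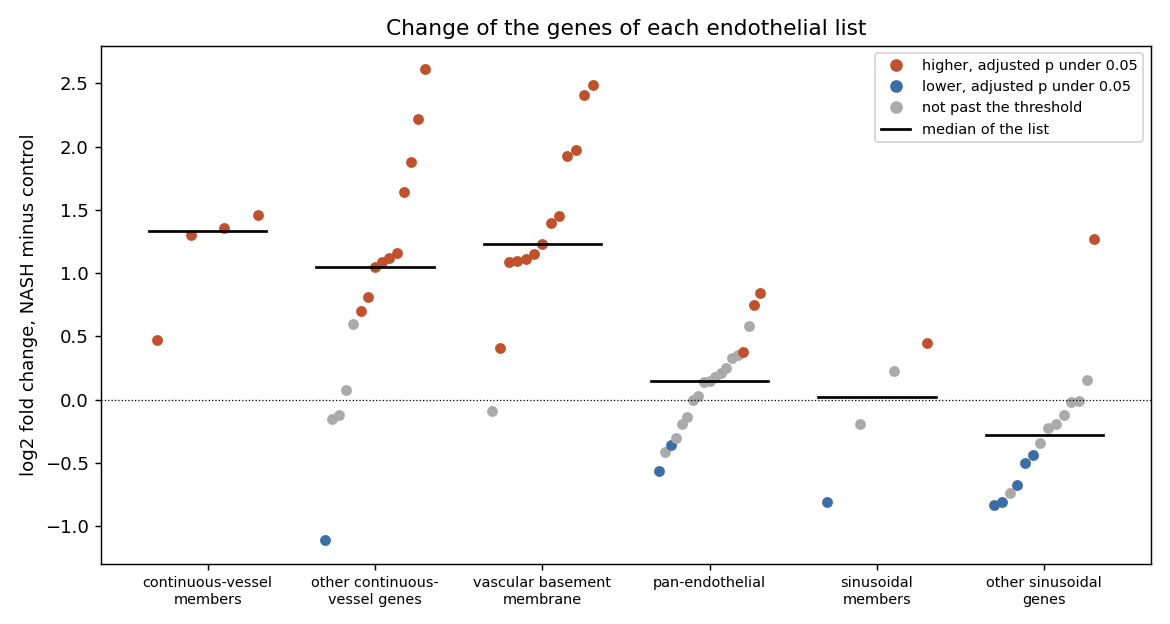
Log2 fold change of each tested gene, NASH minus control (vertical axis), in the 8 endothelial genes by class and in 4 further lists. Orange and blue points are genes called higher and lower, grey points are not called, and bars are medians. The continuous-vessel and basement membrane columns lie mostly above 0, the pan-endothelial column straddles 0 and the other sinusoidal genes lie mostly below it with TMM scaling.

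Macrophages share *STAB1*, *LYVE1* and *MRC1* with the sinusoid. Of 14 macrophage markers, 10 were tested, 3 of them higher, 1 lower and 6 not called, which is near the 27.9% of all symbols that were higher and under the 53.9% called in all. Their summed level was between 393 and 897 CPM in controls, with control 5 the lowest, and between 665 and 1020 CPM in NASH. Control 5 was also the lowest control for *STAB1*, *PECAM1*, *CD34* and *KDR*. Those called higher were *CD68*, a lysosomal protein of macrophages, by 0.69 on the log2 scale, *MSR1*, a scavenger receptor, from a mean of 35.4 to one of 78.9 CPM, and *TREM2*, a lipid receptor of macrophages in injured tissue, from 0 to 9 reads per control to a mean of 12.2 CPM in NASH, a change whose size is imprecise because the controls are near 0. The one called lower was *MARCO*, a scavenger receptor of Kupffer cells, with a difference of −1.27. The part of macrophages in the values of *STAB1* and *LYVE1* was not tested. Of 6 lymphatic markers 5 were tested, 1 higher and 1 lower, the latter *FLT4*, which is also among the other sinusoidal genes. Their summed level ran from 262 to 589 CPM in controls and from 299 to 532 CPM in NASH, but most of it was *PROX1*, which hepatocytes express, and *RELN*, so that it is not a measure of lymphatic endothelium.

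Platelets carry von Willebrand factor and *PECAM1* as well. Of 9 platelet and megakaryocyte markers only 3 were tested, with 1 higher and 0 lower, too few to set against the share of all symbols, and *PF4* and *PPBP* were not among them. The summed level ran from 66.0 to 103 CPM in controls and from 63.0 to 95.1 CPM in NASH, nearly all of it *ITGA2B*, whose count row carries another symbol. Of 7 leukocyte markers 6 were tested, with 4 higher and 1 lower, where 27.9% of all symbols were higher and 26.0% lower, and a summed level of 99.5 to 148 CPM in controls and 117 to 138 CPM in NASH. The gene that was lower, *CD3E* of T cells, was the largest part of the sum in controls. It fell from 69 ± 21.6 to 33 ± 10.7 CPM (± SD, n = 6 per group), so the sum is not a measure of leukocytes as a whole. *PTPRC*, carried by all leukocytes, rose by 0.86 on the log2 scale (edgeR adjusted p = 3.87e-05), beside 0.47 for *PECAM1*, and the part of leukocytes in that gene's rise was not tested.

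The ligands, co-receptors and enzymes that meet these proteins were read in the same animals. Of 25 such genes 20 were tested, with 8 higher, 4 lower and 8 not called and a median log2 fold change of 0.16. This is near the 53.9% of all symbols that were called, and with library size alone 14 were higher and 2 lower. *ADAMTS13*, the protease that trims von Willebrand factor, rose 1.47-fold, from 25.8 ± 2.93 to 37.9 ± 4.97 CPM (± SD, n = 6 per group), or by 0.55 on the log2 scale (edgeR adjusted p = 0.000515), on a count row shared with *CACFD1*. This rise was less than that of *VWF* at 1.46. *CXCL12*, the chemokine that *ACKR3* takes up, fell from 234 ± 47.8 to 166 ± 31.8 CPM (± SD, n = 6 per group), a difference of −0.49 on the log2 scale (edgeR adjusted p = 0.0164).

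Among the ligands of the VEGF receptor family, of which VEGF-B and PlGF bind the receptor FLT1 and not that encoded by *KDR*, *VEGFD* fell from 1.23 ± 0.341 to 0.327 ± 0.135 CPM (± SD, n = 6 per group), on 4 to 16 reads in an animal with NASH, or −1.89 on the log2 scale with an SE of 0.31 (edgeR adjusted p = 0.000217). *VEGFB*, *VEGFC* and *PGF* were not called, with log2 fold changes of 0.02, 0.22 and 1.21. The 95% interval of *PGF*, from 0.12 to 2.30, is wide on few reads. Of the co-receptors, *NRP2* rose by 1.43 (SE 0.23, edgeR adjusted p = 0.000183), and *NRP1* was at 161 ± 29.1 CPM in controls and 158 ± 17.5 CPM in NASH (± SD, n = 6 per group).

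*LYVE1* and stabilin-2 bind hyaluronan, and *HAS2*, which makes it, had the largest rise of the list. It went from 0.0743 ± 0.0932 CPM, with 0 to 5 reads per control, to 2.28 ± 0.357 CPM with 56 to 90 reads per NASH animal (± SD, n = 6 per group), or by 4.68 on the log2 scale with an SE of 0.47 (edgeR adjusted p = 4.63e-06), whose size is imprecise because the controls are near 0. *GDF15*, a secreted stress cytokine, rose by 2.26 (SE 0.65, edgeR adjusted p = 0.0102), also on few reads. *MASP1*, a protease of the lectin pathway that ficolins bring into play, fell from 293 ± 37.6 to 173 ± 16.2 CPM (± SD, n = 6 per group), a difference of −0.76 on the log2 scale with an SE of 0.09 (edgeR adjusted p = 2.32e-05).

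Likeness between genes was described over 12 animals with the deposited rlog values, after the mean of each group had been subtracted. The genes of one animal share its scaling and depth, so r between genes is not free of these. Among the 28 pairs of the 8 genes, *PECAM1* and *STAB1* were the most alike, with a Pearson's r of 0.88, 0.90 within controls and 0.81 within NASH. *VWF* and *ACKR3* followed at 0.70, at 0.48 within controls and 0.81 within NASH, but their Spearman's rho was 0.43 and their r on log2 CPM 0.60, below the 0.67 of *ACKR3* and *CD34*. Both were singled out by the study for their relation to fibrosis area in these same animals, so their likeness is not independent of that choice. *STAB2* and *LYVE1*, which share a ligand, had an r of 0.39, with −0.24 within controls and 0.58 within NASH. At the other end, *CD34* and *STAB2* had an r of −0.43, with −0.10 within controls and −0.79 within NASH. *STAB1* and *STAB2*, both stabilins, had an r of 0.07, with −0.45 within controls and 0.52 within NASH.

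Of all symbols, *CLEC14A* (r = 0.902), an endothelial lectin, and *SELP* (r = 0.892), the selectin stored with von Willebrand factor in Weibel–Palade bodies, were nearest to *VWF*. *CLEC14A* was not called, at 0.33 on the log2 scale (edgeR adjusted p = 0.312), and *SELP* rose by 1.05 (edgeR adjusted p = 0.0017). *MYO1E* (r = 0.902) and *HSPG2* (r = 0.891), the latter a proteoglycan of basement membranes, were nearest to *ACKR3*. For *STAB1* they were *JADE2* (r = 0.962) and *NPR1* (r = 0.956), and for *PECAM1* *ZNF217* (r = 0.946) and *ANO2* (r = 0.943). For *CD34* they were *FAM184A* (r = 0.924) and *TDP1* (r = 0.895). For *STAB2* they were *ARID5A* (r = 0.913) and *C11orf96* (r = 0.899), for *LYVE1* *SLC25A21* (r = 0.924) and *FN1* (r = 0.888), and for *KDR* *DHX38* (r = 0.852) and *JUNB* (r = 0.849). These are the highest values among 11896 symbols over 12 animals, where high values also arise by selection.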

How the data were processed

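Liver RNA of 6 NASH and 6 control guinea pigs was read by stranded, single-read mRNA sequencing. One deposited table holds raw counts for loci of StringTie 1.3.6 or Ensembl genes, from reads trimmed with Trimmomatic 0.38.0, aligned to Cavpor3.0 with HISAT2 2.1.0 and freed of multimapped reads (submitters' processing notes and study's methods). The authors also deposited log2 values from the rlog transformation of DESeq2 for symbols with a total of at least 200 counts. The count row of each symbol was found by repeating that transformation, which matched the deposited values to within 8e-07 for 11896 symbols on 11031 of 39061 count rows.

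Tests on the counts used edgeR 4.0.16 under R 4.3.3 (TMM, whole-table totals as library size, glmQLFit with robust estimation, glmQLFTest), by group only. The standard error is the absolute log2 fold change over the square root of F, log2 CPM uses a prior count of 2, and intervals are 95%. Totals per animal were between 16980274 and 33091460 counts, and the squared difference between any 2 animals of a group averaged at least 41.9 times counting variance. Alternatives were RLE factors, library size alone, DESeq2 1.42.0, limma-voom (limma 3.58.1), limma on rlog values, other filters, each count row once, and each animal left out. Leaving *KDR* out of its class was added after seeing the data, and *PECAM1* was not left out of its class. The procedures were tested on simulated data. Figures used Python 3.11.15 and matplotlib 3.10.9.

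The genes, the 5 lists of related genes and the 8 lists of cell type markers were chosen with earlier results of these data known. Named were the 8 genes, the 2 largest called rises and falls of each list of related genes, 9 tested partners of 12 listed as binding or cleaving one of the proteins or a close relative, and for each gene the 2 symbols nearest in pattern. *CDH5*, *CD68*, *MSR1*, *TREM2*, *MARCO*, *FLT4*, *PROX1*, *RELN*, *PTPRC*, *CD3E*, *ITGA2B*, *CLU* and *ALB* were named after their values were seen. No table of sequences of the Cavpor3.0 build was used here, so no sequence or coordinate is given.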

Additional observations from a re-analysis of the deposited data

Results flagged for a closer look

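Within each group, the animals farthest out were checked for each of the 8 genes, 16 groups in all, of which 1 stood out. Control 56 had 150 CPM of *LYVE1*, and the next control had 115 CPM, a gap of 0.707 of the whole range of the controls, above Dixon's 95% critical value for 6 animals. Chance flags about 1 in 20 such groups. Control 56, with the fewest reads of all animals, was also the highest control for *VWF*, *ACKR3*, *CD34* and *STAB1*. Without it, *LYVE1* was still lower in NASH, and its log2 fold change stayed between −0.89 and −0.73 over all 12 animals left out in turn.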

How the results depend on the processing

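With library size alone, *STAB1* was at 0.28 on the log2 scale, the opposite sign to the −0.19 of TMM scaling, and it was not called under either. Under the same setting the pan-endothelial list had 14 genes higher and 0 lower, the other sinusoidal genes 4 higher and 1 lower, and the partners 14 higher and 2 lower. With every count row of at least 1 count, 3 of the other sinusoidal genes were lower, with DESeq2 6, and with single animals left out between 4 and 7, the 7 without control 5. Leaving out single animals, the pan-endothelial genes that were lower numbered between 2 and 4, the 4 without control 5. In these 20 alternatives the calls of the 8 genes otherwise kept their direction and their side of the threshold. Without one animal, *VWF* ranged from 1.32 to 1.55, *ACKR3* from 1.17 to 1.57, *PECAM1* from 0.39 to 0.54, *CD34* from 1.17 to 1.43, *STAB2* from 0.40 to 0.52, *STAB1* from −0.28 to −0.10 and *KDR* from 0.06 to 0.52, and neither *STAB1* nor *KDR* was called in any of these fits. The rlog values are shrunken, so limma gave smaller changes on them, 0.86 for *VWF* and 0.53 for *ACKR3*. No paired analysis was possible because the groups share no animal numbers. Among the 8 genes, *ACKR3* and *CD34* rest on the fewest reads.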

Other observations

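Of the remaining marker lists, those of hepatocytes and cholangiocytes are read against the 27.9% of all symbols that were higher and the 26.0% that were lower. Of 8 hepatocyte markers, all tested, 7 were lower in NASH and 0 higher (median difference −1.25 on the log2 scale), and their summed level fell from between 87700 and 118000 CPM to between 30100 and 52300 CPM. Of 6 cholangiocyte markers 5 were tested and all 5 were higher, with a median of 3.09. Of 6 erythroid markers only 3 were tested, too few to set against these shares. All 3 were higher, with a median of 4.49, and a summed level of 0.974 to 5.50 CPM in controls and 25.2 to 264 CPM in NASH.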
